A study of Homo sapiens with 9 samples.

Results

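The transcripts described here are the 10 of 21229 gene symbols in the count table that belong to a named set of epithelial-mesenchymal transition (EMT) factors and their adhesion targets. SNAI1, SNAI2, TWIST1, TWIST2, ZEB1 and ZEB2 are the transcription factors, and CDH1, CDH2, VIM and EPCAM are the adhesion and cytoskeletal genes. All 10 symbols were found, by matching the names of the set to the table. The RNA came from haematopoietic cells grown out of H1, a human embryonic stem cell line, and was sequenced as strand-specific libraries. The 9 libraries form 3 groups of 3. The first group held CD90+ cells that overexpressed GATA2, a zinc-finger transcription factor of blood stem cells. The second held CD90+ cells of the control genotype, CD90 being a surface protein encoded by THY1 that is used as a marker of immature blood cells. These CD90+ libraries also held transcripts of stromal markers, given below. The third held CD38+ cells of the control genotype, CD38 being a surface enzyme that appears on maturing progenitors. All 3 groups therefore share the H1 background and the differentiation from stem cells. How GATA2 was introduced, whether the cells were 1 clone, the day of culture and whether replicates were separate cultures were not stated in the labels. If the replicates were technical, the p-values below measure only the spread between these libraries.

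In EMT, epithelial cells lose the E-cadherin junctions that hold them together and gain the vimentin cytoskeleton and motility of mesenchymal cells. SNAI and ZEB proteins are zinc-finger repressors that bind E-box sequences in the promoters of CDH1 and other junction genes, and TWIST proteins are basic helix-loop-helix factors that act in the same programme. Several of these factors also work inside the blood system: in mice Zeb2 is needed for blood stem cells to differentiate and Snai2 protects blood progenitors from radiation. The first blood stem cells of an embryo leave the wall of a vessel by a related change of shape and adhesion.

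Library totals ran between 37500192 and 39582736 counts with GATA2 overexpression, between 42577569 and 47261093 for the CD90+ control, and between 42695005 and 45561088 for the CD38+ control. Levels are CPM (counts scaled to library size), adjusted with TMM factors to make libraries of different composition comparable, and given as mean ± SD with n = 3. GATA2 itself stood at 376 ± 12.8 CPM in the overexpressing CD90+ libraries, 87.3 ± 1.93 CPM in their CD90+ controls and 569 ± 16.3 CPM in the CD38+ controls. THY1 was low in the cells sorted for its product, at 3.06 ± 0.439 CPM with GATA2 overexpression and 4.43 ± 0.632 CPM in CD90+ control cells, and had 0 counts in CD38+ control cells. CD38 averaged 2.23 ± 0.514 CPM, 4.37 ± 0.382 CPM and 122 ± 2.40 CPM in the same order of groups. Markers of blood cells in general (PTPRC, SPN, CORO1A, LCP1 and LAPTM5) summed to 1290 to 1370 CPM with GATA2 overexpression, 2220 to 2240 CPM in CD90+ control libraries and 6750 to 7030 CPM in CD38+ control libraries. SPN went against the sum with GATA2 overexpression, at 193 ± 1.85 CPM, against 52.5 ± 0.542 CPM in CD90+ and 128 ± 1.83 CPM in CD38+ control cells. The other 4 were lower with GATA2 overexpression than in either control group. Fewer cells of a type and less RNA per cell cannot be told apart in these bulk samples.

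Within CD90+ cells, 7 of the 9 members tested were lower with GATA2 overexpression than in control cells. These were both SNAI genes, both ZEB genes, both classical cadherins and EPCAM, with CDH1 showing the largest fold. VIM alone among the members was called higher, a direction that turned with library size as the only scaling, and TWIST1 was not called. TWIST2 had too few counts to be tested. The test was edgeR's quasi-likelihood test over 16232 genes with Benjamini-Hochberg adjustment, called at an adjusted p under 0.05. By that rule 77.6% of all tested genes were called in this comparison, 38.0% higher and 39.6% lower, so a count of 8 of 9 called is close to what genes in general showed. With library size alone all 9 tested members were lower. The members' median log2 fold change was -0.93, against -0.04 over all tested genes.

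CD90+ control cells differed from CD38+ control cells mostly in the other direction: 6 of 9 members were higher (SNAI1, SNAI2, ZEB1, CDH1, CDH2 and EPCAM), VIM was lower, and TWIST1 and ZEB2 were not called. Of all tested genes 80.4% were called, 41.1% higher and 39.3% lower. The median log2 fold change was 2.22 for the members and 0.03 for all tested genes. GATA2 overexpression CD90+ cells set against CD38+ control cells had the same 6 members higher, with ZEB2 and VIM lower and TWIST1 not called. Here 83.2% of tested genes were called, 43.3% higher and 39.9% lower, and the median log2 fold change was 1.12 for the members and 0.07 for all tested genes. Each pair of these comparisons shares a group of libraries, so their values are given side by side and are not independent of each other.

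**Figure D1:**
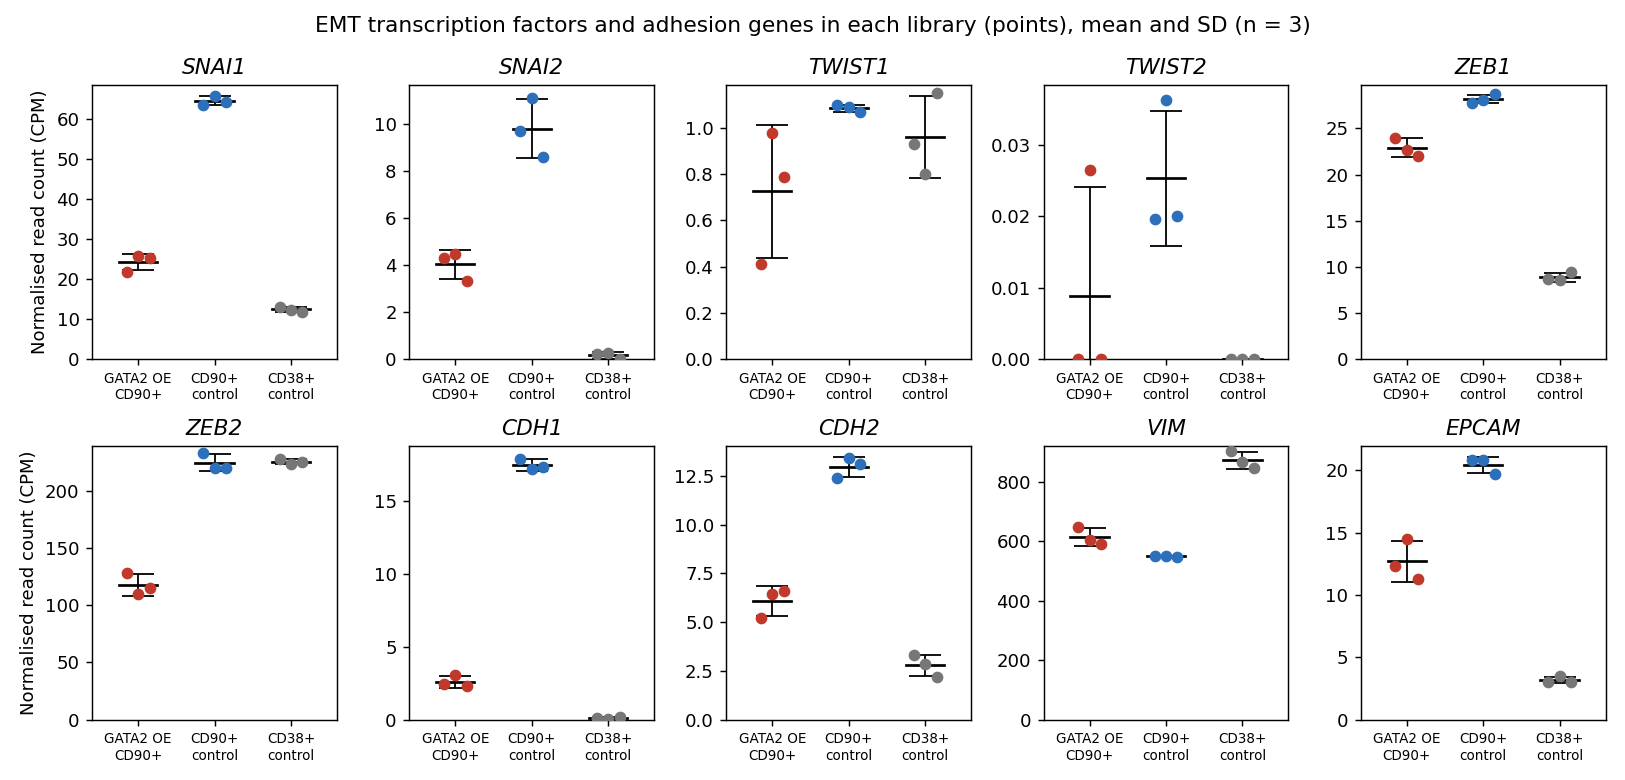
Level of each of the 10 members in each of the 9 libraries, in CPM on axes of their own; points are libraries and bars mark the mean ± SD of each group. For SNAI1, SNAI2, ZEB1, CDH1, CDH2 and EPCAM the GATA2 overexpression CD90+ libraries lie between the other groups, and for ZEB2 they lie below both. For VIM they also lie between, by a small margin over CD90+ control libraries that depends on the scaling.

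SNAI1 (ENSG00000124216.3, chr20:49982999-49988886, plus strand, GRCh38) encodes Snail, a direct repressor of CDH1. It had 21.8, 25.6 and 25.2 CPM in GATA2 overexpression CD90+ libraries, 63.5, 65.7 and 64.1 CPM in CD90+ control libraries and 13.1, 12.3 and 11.8 CPM in CD38+ control libraries. The 3 groups did not overlap, with CD90+ control cells highest and CD38+ control cells lowest. SNAI1 fell by 1.41 ± 0.06 (SE) on the log2 scale with GATA2 overexpression among CD90+ cells (2.66-fold lower; adjusted p = 8.16e-13). It was 5.20-fold higher in CD90+ than in CD38+ control cells (log2 fold change 2.38 ± 0.06, adjusted p = 1.32e-15) and 1.96-fold higher in GATA2 overexpression CD90+ than in CD38+ control cells (0.97 ± 0.07, adjusted p = 4.09e-10).

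SNAI2 (ENSG00000019549.11, chr8:48917604-48921740, minus strand) encodes Slug, the closest relative of Snail. It had 4.29, 4.45 and 3.32 CPM with GATA2 overexpression, 9.70, 11.1 and 8.58 CPM in CD90+ control libraries and 0.213, 0.267 and 0 CPM in CD38+ control libraries. Those last values come from 8, 10 and 0 counts, and a count of 0 allows up to 0.0751 CPM in that library, for counting error only. The groups were ordered as for SNAI1 and did not overlap. With GATA2 overexpression SNAI2 fell by 1.28 ± 0.23 (2.44-fold lower; adjusted p = 8.82e-05). Its fold between CD90+ and CD38+ control cells was large and imprecise, at 61.3-fold (log2 fold change 5.94 ± 0.35, adjusted p = 7.45e-11), and was 40.2-fold without replicate 3 of the CD38+ control. The fold of GATA2 overexpression CD90+ over CD38+ control cells was 25.2 (4.65 ± 0.37, adjusted p = 3.4e-09), 38.1 without CD38+ control replicate 2 and 16.6 without replicate 3.

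ZEB1 (ENSG00000148516.21, chr10:31318495-31529814, plus strand) encodes an E-box repressor of CDH1 that is also required for T cell development in mice. It had 24.0, 22.7 and 22.0 CPM with GATA2 overexpression, 27.8, 28.1 and 28.7 CPM in CD90+ control libraries and 8.64, 8.53 and 9.41 CPM in CD38+ control libraries. All GATA2 overexpression libraries lay just under the CD90+ control libraries and well above the CD38+ control libraries. The difference within CD90+ cells was a fall of 0.30 ± 0.06 on the log2 scale (1.23-fold lower; adjusted p = 0.00032). ZEB1 was 3.18-fold higher in CD90+ than in CD38+ control cells (1.67 ± 0.07, adjusted p = 3.03e-13) and 2.58-fold higher in GATA2 overexpression CD90+ than in CD38+ control cells (1.37 ± 0.07, adjusted p = 4.37e-12).

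ZEB2 (ENSG00000169554.19, chr2:144364364-144524583, minus strand), its paralog, had another pattern. It had 128, 110.2 and 115 CPM with GATA2 overexpression, 233, 220.3 and 220.2 CPM in CD90+ control libraries and 228, 223 and 225 CPM in CD38+ control libraries. The CD90+ and CD38+ control libraries overlapped, and every GATA2 overexpression library lay below all 6 of them. ZEB2 was 1.91-fold lower with GATA2 overexpression than in CD90+ control cells (log2 fold change -0.93 ± 0.04, adjusted p = 1.56e-12) and 1.91-fold lower than in CD38+ control cells (-0.94 ± 0.04, adjusted p = 9.71e-13). Between the 2 control groups the difference was -0.01 ± 0.04 (adjusted p = 0.887), which turned to 0.40 (adjusted p = 4.23e-08) with library size alone as the scaling and to 0.26 (adjusted p = 1.13e-05) with upper-quartile factors. Relative to the median of all tested genes it was -0.04 under each of these scalings, which is fixed in advance because a change of scaling shifts all genes alike.

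Relative to transcript length, ZEB2 exceeded ZEB1 in all 9 libraries, by a ratio that differed between the groups. The ratio of ZEB2 to ZEB1 in CPM per kb was 3.03, 2.77 and 2.97 with GATA2 overexpression, 4.76, 4.46 and 4.36 in CD90+ control libraries and 15, 14.9 and 13.6 in CD38+ control libraries. The groups did not overlap. The mean log2 ratio was lower by 0.63 with GATA2 overexpression than in CD90+ control cells, and lower by 1.68 in CD90+ than in CD38+ control cells. Each of the 6 differences of ratios tested between groups had a two-sided exact permutation p of 0.1, the smallest that 3 against 3 libraries allow, so none could pass 0.05. Lengths taken from the union of all exons gave ratios of 1.68 to 1.84, 2.65 to 2.89 and 8.26 to 9.1 in the same groups.

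Promoter sequences were in the RefSeq table (GRCh38.p14) for 5 of the 10 members: TWIST2, ZEB1, ZEB2, CDH2 and VIM. The 250 bases before each listed start were searched on both strands for the E-box CAGGTG, bound by SNAI and ZEB proteins. They were also searched for GATA-factor letters, in the spelling AGATAA, the spelling TGATAA, the spelling AGATAG and the spelling TGATAG. The window of the first of 7 listed ZEB1 starts and a stretch of the ZEB2 window are shown because they carry a match and both genes moved with GATA2 overexpression; capitals mark the matched letters.
ZEB1, chr10:31318167-31318416, plus strand: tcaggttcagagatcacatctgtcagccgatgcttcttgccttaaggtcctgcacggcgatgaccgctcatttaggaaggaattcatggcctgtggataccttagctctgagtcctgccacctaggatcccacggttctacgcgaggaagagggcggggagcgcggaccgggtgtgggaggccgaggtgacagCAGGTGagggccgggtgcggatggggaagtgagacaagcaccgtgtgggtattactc
ZEB2, chr2:144520236-144520265, minus strand: ccctccccacaaAGATAGgtggcgcgtgtt
This ZEB1 E-box lies 57 bases before the first start. Of the 7 ZEB1 windows searched, the third held 2 more matches, 85 and 242 bases before its own start, and the others held none. Over all genes, CAGGTG on either strand was in 17.5% of all 35116 windows of this length. The ZEB2 match AGATAG lies 134 bases before the single start listed in RefSeq, which is inside the annotated gene, so that the window overlaps annotated exons of ZEB2. By comparison, AGATAG was in 5.66% of windows, with any of the 4 GATA spellings in 22.3%. The windows of TWIST2, CDH2 and VIM held none of these letters. A match describes letters only, and nothing about binding follows from its presence or absence.

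TWIST1 (ENSG00000122691.12, chr7:19020991-19117672, minus strand), which in other tissues drives mesoderm and neural crest cells to migrate, was scarce in every group. Its 16, 37 and 29 counts with GATA2 overexpression made 0.413, 0.98 and 0.788 CPM. CD90+ control libraries had 1.10, 1.09 and 1.07 CPM (56, 60 and 53 counts), and CD38+ control libraries had 0.931, 0.802 and 1.15 CPM (35, 30 and 46 counts). The GATA2 overexpression libraries lay below the CD90+ control libraries without overlap, yet the log2 fold change of -0.58 ± 0.30 was not called (adjusted p = 0.0899). It was called with library size alone (-0.83, adjusted p = 0.0198), with upper-quartile factors (-0.69, adjusted p = 0.0459), among genes with at least 1 CPM in 3 libraries (-0.68, adjusted p = 0.0487) and without GATA2 overexpression replicate 2 (-0.85, adjusted p = 0.0305). Neither CD90+ control (0.17 ± 0.29, adjusted p = 0.597) nor GATA2 overexpression CD90+ cells (-0.41 ± 0.31, adjusted p = 0.232) differed detectably from CD38+ control cells at this depth. TWIST2 (ENSG00000233608.3, chr2:238848032-238910543, plus strand) had 0, 1 and 0 counts with GATA2 overexpression, 1, 2 and 1 counts in CD90+ control libraries and 0 in each CD38+ control library. It did not pass the filter on low counts, and a group floor of 3 counts corresponds to 0.0265 CPM, 0.0193 CPM and 0.0261 CPM in the same groups.

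CDH1 (ENSG00000039068.18, chr16:68737225-68835548, plus strand) encodes E-cadherin, the adherens junction protein of epithelia, which is also carried by human erythroid precursors. It had 2.43, 3.07 and 2.31 CPM with GATA2 overexpression (94, 116 and 85 counts), 17.9, 17.2 and 17.3 CPM in CD90+ control libraries (912, 950 and 859 counts) and 0.133, 0.0802 and 0.175 CPM in CD38+ control libraries (5, 3 and 7 counts). The groups were far apart, with CD90+ control cells highest. CDH1 fell by 2.75 ± 0.14 on the log2 scale with GATA2 overexpression (6.71-fold lower; adjusted p = 8.21e-12). The fold was 131 for CD90+ over CD38+ control cells (7.03 ± 0.21, adjusted p = 4.74e-15) and 19.6 for GATA2 overexpression CD90+ over CD38+ control cells (4.29 ± 0.24, adjusted p = 2.17e-11). Within CD90+ cells CDH1 and 4 genes of its known repressors, SNAI1, SNAI2, ZEB1 and ZEB2, were thus all lower with GATA2 overexpression. Markers of other cells that carry E-cadherin also differed: those of epithelium and endoderm, 10 of 10 with counts, summed to 702 to 704 CPM with GATA2 overexpression, 1050 to 1060 CPM in CD90+ control libraries and 370 to 383 CPM in CD38+ control libraries. Within CD90+ cells 9 of these 10 were lower with GATA2 overexpression, and KRT18 was higher. KRT8 and KRT18 made up most of the sum in every group, at 104 ± 3.38 and 236 ± 4.77 CPM in CD38+ control cells. There AFP, APOA1, TTR and FOXA2 averaged 0.305, 1.03, 0.882 and 0.12 CPM, while CLDN7 was at its highest (12.9 ± 0.774 CPM). Erythroid markers, 8 of 8 with counts, summed to 365 to 436 CPM, 760 to 781 CPM and 202 to 208 CPM in the same groups. HBE1 made up most of each erythroid sum, at 291 ± 35, 637 ± 10.1 and 183 ± 4.28 CPM. Of the 7 erythroid markers tested, 5 were lower with GATA2 overexpression than in CD90+ control cells, and KLF1 was higher. The part of these cell types in the CDH1 values was not tested.

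CDH2 (ENSG00000170558.8, chr18:27950966-28177446, minus strand) encodes N-cadherin, the cadherin that mesenchymal and neural cells carry in place of E-cadherin. Its levels were 5.19, 6.44 and 6.58 CPM with GATA2 overexpression, 12.4, 13.4 and 13.1 CPM in CD90+ control libraries and 3.30, 2.86 and 2.20 CPM in CD38+ control libraries. These groups had the order of CDH1 without overlap, but stood closer together. CDH2 fell by 1.10 ± 0.14 with GATA2 overexpression (2.14-fold lower; adjusted p = 1.42e-06). It was 4.67-fold higher in CD90+ than in CD38+ control cells (2.22 ± 0.15, adjusted p = 3.07e-10) and 2.18-fold higher in GATA2 overexpression CD90+ than in CD38+ control cells (1.12 ± 0.15, adjusted p = 2.53e-06). Stromal markers, which include the collagens COL1A1, COL1A2 and COL3A1, summed to 260 to 277 CPM with GATA2 overexpression and 1090 to 1100 CPM in CD90+ control libraries, with 7 of 7 markers present in both. In CD38+ control libraries the sum was 14 to 15.2 CPM, with POSTN at 0. Cardiac and smooth muscle markers, 7 of 7 with counts, summed to 45.4 to 47.2 CPM, 109 to 112 CPM and 10.8 to 12.2 CPM in the same order of groups. In CD38+ control cells nearly all of that sum was ACTA2 (9.21 ± 0.363 CPM) and TAGLN (1.88 ± 0.192 CPM). The part of these cells in the CDH2, SNAI2 and VIM values was not tested.

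The balance of the cadherins was not the same in the 3 groups. In CPM per kb of transcript the ratio of CDH2 to CDH1 was 2.41, 2.36 and 3.21 with GATA2 overexpression, 0.783, 0.88 and 0.855 in CD90+ control libraries and 28.0, 40.3 and 14.2 in CD38+ control libraries. E-cadherin transcripts thus outnumbered N-cadherin transcripts per kb in CD90+ control libraries and were outnumbered in the other 6, although both genes were at their highest in CD90+ control cells. The ratio for CD38+ control cells rests on 3 to 7 CDH1 counts per library. The mean log2 ratio was higher by 1.65 with GATA2 overexpression than in CD90+ control cells, with the same exact permutation p of 0.1. Union-of-exon lengths gave 2.61 to 3.55, 0.866 to 0.973 and 15.7 to 44.5.

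**Figure D2:**
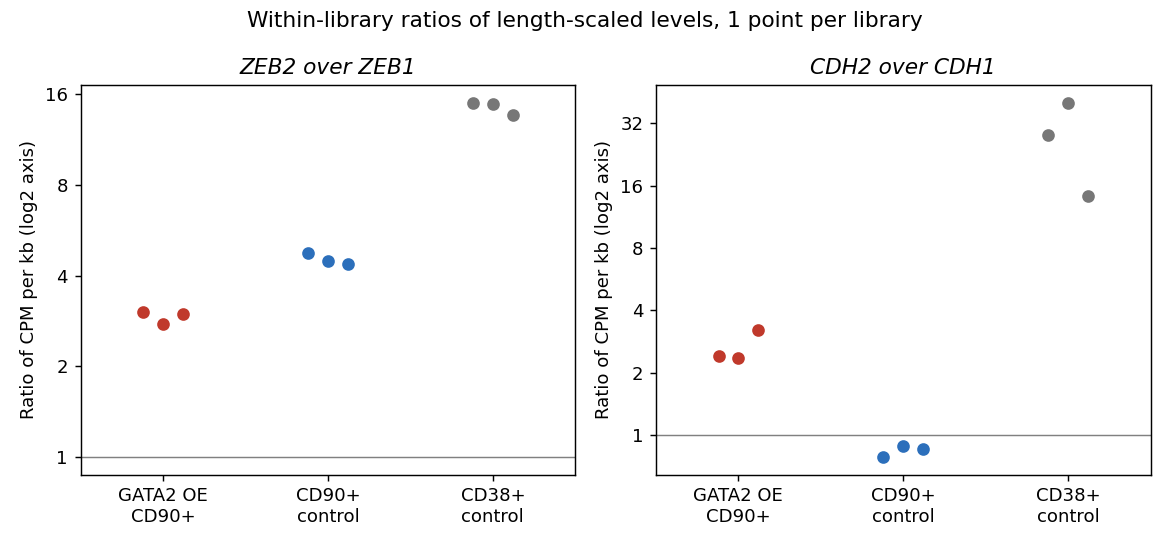
Ratio of ZEB2 to ZEB1 and of CDH2 to CDH1 in each library, from CPM per kb of the principal transcript, on a log axis; points are libraries. GATA2 overexpression CD90+ libraries have the lowest ZEB2 to ZEB1 ratio (2.77 to 3.03), and their CDH2 to CDH1 ratio (2.36 to 3.21) lies between those of the control groups.

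EPCAM (ENSG00000119888.10, chr2:47345158-47387601, plus strand) encodes an epithelial adhesion protein that undifferentiated stem cells also carry. Libraries with GATA2 overexpression had 12.3, 14.5 and 11.3 CPM, CD90+ control libraries had 20.8, 20.8 and 19.7 CPM, and CD38+ control libraries had 3.03, 3.50 and 3.05 CPM. GATA2 overexpression libraries again lay between the control groups with no overlap. EPCAM fell by 0.68 ± 0.10 with GATA2 overexpression (1.61-fold lower; adjusted p = 5.93e-06). It was 6.39-fold higher in CD90+ than in CD38+ control cells (2.68 ± 0.11, adjusted p = 4.02e-13) and 3.98-fold higher in GATA2 overexpression CD90+ than in CD38+ control cells (1.99 ± 0.11, adjusted p = 2.22e-11). Summed markers of undifferentiated stem cells, 5 of 6 of which are in the table, were 57 to 62.1 CPM with GATA2 overexpression, 62.2 to 63.7 CPM in CD90+ control libraries and 7.71 to 8.8 CPM in CD38+ control libraries. Within CD90+ cells 3 of the 4 tested were lower with GATA2 overexpression and 1 higher (median log2 fold change -1.81). LIN28A averaged 19.4 ± 2.16 CPM, against 33 ± 0.443 CPM in CD90+ control cells, and SOX2 averaged 0.599 ± 0.268 CPM, against 6.14 ± 0.635 CPM. DPPA4 was the higher one, at 39.4 ± 1.39 CPM against 23.3 ± 0.974 CPM. The part of such cells in the EPCAM values was not tested. POU5F1, the defining factor of that state, had 0 counts with GATA2 overexpression and in CD38+ control cells. In CD90+ control cells it averaged 0.0264 ± 0.0299 CPM, near the group floor of 0.0193 CPM, and it was not tested. SOX2 had 0 counts in CD38+ control cells.

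VIM (ENSG00000026025.15, chr10:17228259-17237593, plus strand) encodes vimentin, the intermediate filament of mesenchymal cells and of leukocytes. It had 648, 605 and 589.7 CPM with GATA2 overexpression, 551, 551 and 546 CPM in CD90+ control libraries and 904, 866 and 848 CPM in CD38+ control libraries. The GATA2 overexpression libraries lay above the CD90+ control libraries by a small margin, and CD38+ control libraries lay above both. The log2 fold change within CD90+ cells was 0.16 ± 0.03 (1.12-fold higher; adjusted p = 0.000226), and it turned to -0.09 (adjusted p = 0.0181) with library size alone. It was 0.05 (adjusted p = 0.189) with upper-quartile factors and 0.06 (adjusted p = 0.0769) under the filter of 1 CPM. Relative to the median of all tested genes it was 0.20 under each of the 4 scalings. A change of scaling shifts all genes alike, so this sameness was fixed in advance and lends no support to the direction. VIM was 1.59-fold lower in CD90+ than in CD38+ control cells (-0.67 ± 0.03, adjusted p = 3.67e-12) and 1.42-fold lower in GATA2 overexpression CD90+ than in CD38+ control cells (-0.51 ± 0.03, adjusted p = 1.33e-10).

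**Figure D3:**
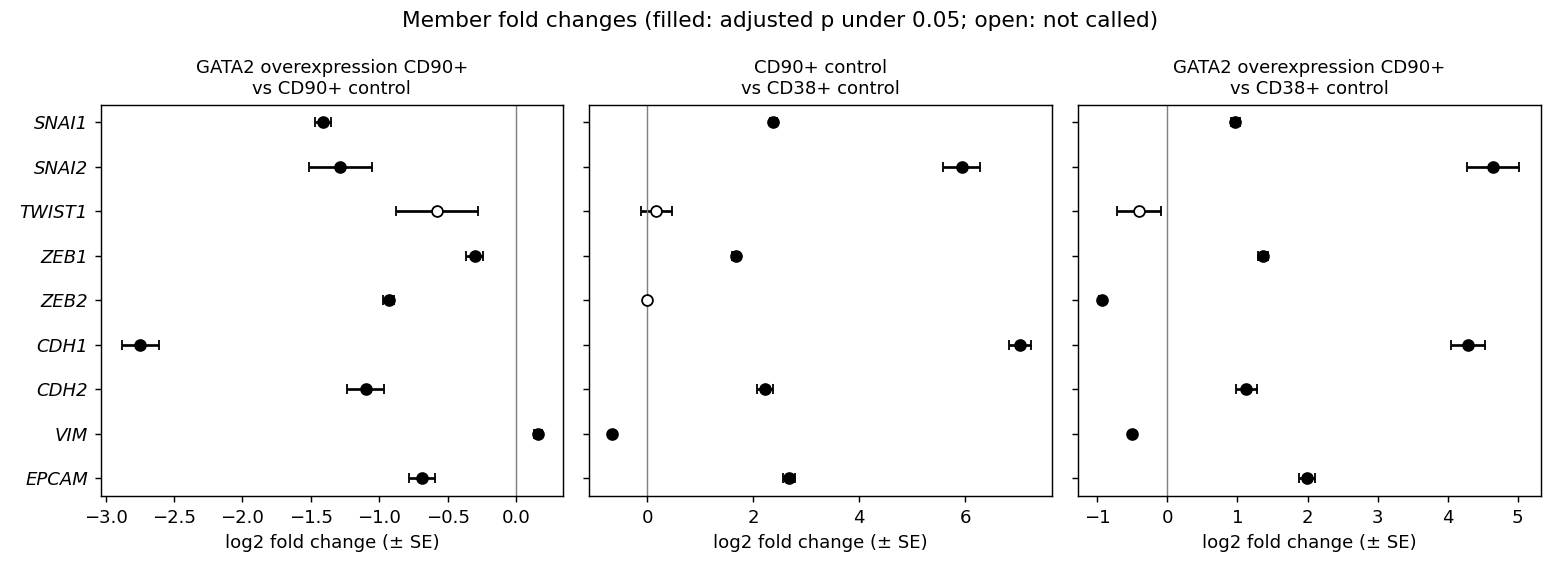
Log2 fold change ± SE of the 9 tested members in the 3 comparisons, from edgeR's quasi-likelihood test, with filled points for adjusted p under 0.05. Within CD90+ cells 7 called members and TWIST1 (-0.58, not called) lie below 0, and VIM (0.16) lies just above it; its sign turns (-0.09) with library size alone as the scaling.

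Antisense genes overlap several members, and since the strand setting of the counting is not given, sense and antisense reads cannot be told apart here. ZEB1-AS1, transcribed from the ZEB1 promoter region, averaged 7.61 ± 0.824 CPM with GATA2 overexpression, 4.33 ± 0.78 CPM in CD90+ control libraries and 5.15 ± 0.145 CPM in CD38+ control libraries. It was higher with GATA2 overexpression than in CD90+ control cells (log2 fold change 0.81, adjusted p = 8.31e-05), whereas ZEB1 was lower. ZEB2-AS1 averaged 0.307 ± 0.179 CPM, 1.16 ± 0.0522 CPM and 1.14 ± 0.177 CPM in the same groups and was lower with GATA2 overexpression (-1.91, adjusted p = 0.000114), as ZEB2 was. VIM-AS1 averaged 4.38 ± 0.829 CPM, 10.2 ± 0.63 CPM and 13.7 ± 0.753 CPM, and was lower with GATA2 overexpression than in CD90+ control cells (-1.22, adjusted p = 1.37e-07), while the sign of the VIM difference in that comparison depended on the scaling.

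Per kb of transcript, VIM was the most abundant member in every group, at 329 ± 16.1 CPM per kb with GATA2 overexpression, 294 ± 1.52 in CD90+ control cells and 467 ± 15.3 in CD38+ control cells. With GATA2 overexpression the order below it was SNAI1 at 14.4 ± 1.24, ZEB2 at 12.3 ± 0.961, EPCAM at 7.38 ± 0.949, ZEB1 at 4.22 ± 0.191, SNAI2 at 1.65 ± 0.253, CDH2 at 1.40 ± 0.176, CDH1 at 0.533 ± 0.084 and TWIST1 at 0.437 ± 0.173 CPM per kb. Libraries of the neighbours SNAI1 and ZEB2, of SNAI2 and CDH2, and of CDH1 and TWIST1 overlapped. In CD90+ control cells SNAI1 came next after VIM at 38.2 ± 0.662 CPM per kb, then ZEB2 at 23.5 ± 0.747, EPCAM at 11.9 ± 0.377, ZEB1 at 5.20 ± 0.0879, SNAI2 at 4.03 ± 0.521, CDH1 at 3.58 ± 0.0765, CDH2 at 3.0 ± 0.119 and TWIST1 at 0.651 ± 0.01, where of these neighbours only SNAI2 and CDH1 had libraries that overlapped. In CD38+ control cells ZEB2 came next after VIM, at 23.6 ± 0.257 CPM per kb, ahead of SNAI1 at 7.35 ± 0.4, EPCAM at 1.85 ± 0.154, ZEB1 at 1.63 ± 0.0888, CDH2 at 0.643 ± 0.127, TWIST1 at 0.577 ± 0.106, SNAI2 at 0.0659 ± 0.0582 and CDH1 at 0.0265 ± 0.00974. There the libraries of CDH2 and TWIST1 overlapped, as did those of SNAI2 and CDH1. The most abundant EMT factor per kb was therefore SNAI1 in CD90+ control cells and ZEB2 in CD38+ control cells. With union-of-exon lengths EPCAM (5.05) came above ZEB2 (4.70) in GATA2 overexpression cells, and CDH2 (1.23) above SNAI2 (1.18).

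Genes whose levels followed a member most closely were ranked by the distance between log2 CPM profiles over the 9 libraries, among 10613 genes with a mean of at least 5 CPM, as a description. For CDH1 these were CRABP2 (distance 0.667), a retinoic acid binding protein with mean levels of 11.9, 77.5 and 0.927 CPM in GATA2 overexpression CD90+, CD90+ control and CD38+ control cells, then DSP (0.853), the desmosomal plaque protein desmoplakin, and CDH3 (1.09), which encodes P-cadherin. For CDH2 they were NRARP (0.34), a target and feedback inhibitor of Notch signalling with 6.96, 14.9 and 3.51 CPM, HBA1 (0.492), an alpha globin gene whose reads may be shared with its near-identical copy HBA2, and ITGB5 (0.539), an integrin subunit. For ZEB2 they included GBF1 (0.0903) and EML4 (0.159), of which GBF1, a regulator of Golgi traffic, had 23.1, 44.2 and 44.9 CPM.

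Beyond the members, 98 further symbols of the pathway were read from 7 lists. Of all tested genes 38.0% were higher and 39.6% lower with GATA2 overexpression than in CD90+ control cells. The shares were 41.1% and 39.3% in CD90+ against CD38+ control cells, and 43.3% and 39.9% with GATA2 overexpression against CD38+ control cells. The 12 tested genes of the first list bind E-boxes, induce EMT or, as ID1, ID2 and ID3, inhibit E-box binding proteins. With GATA2 overexpression 3 were higher and 7 lower than in CD90+ control cells (median log2 fold change -0.88), or 1 higher and 9 lower with library size alone. The higher ones were SNAI3, TCF3 and TCF4, of which TCF3 and TCF4 were not called with library size alone. The lower ones were ID1, ID2 and ID3, and the scarce PRRX1, FOXC1, FOXC2 and KLF8 (1.23, 1.32, 1.17 and 1.92 CPM in CD90+ control cells). ID2 and ID3, inhibitors of basic helix-loop-helix proteins, were at 379 ± 4.91 and 272 ± 10.2 CPM with GATA2 overexpression, against 728 ± 2.29 and 480 ± 5.54 CPM in CD90+ control cells (-0.94, adjusted p = 1.63e-15, and -0.82, adjusted p = 3.55e-14). SNAI3, the remaining Snail-family gene, moved opposite to SNAI1 and SNAI2: 9.06 ± 0.35 CPM with GATA2 overexpression, against 4.87 ± 0.312 CPM in CD90+ control cells (0.90, adjusted p = 1.05e-06). SNAI3 was also lower in CD90+ than in CD38+ control cells (-1.07, adjusted p = 9.82e-08), where SNAI1 and SNAI2 were higher. In CD90+ against CD38+ control cells 8 of the 12 were higher and 3 lower (median 0.78), and with GATA2 overexpression against CD38+ control cells 5 were higher and 3 lower (median 0.18).

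Most co-repressors through which SNAI and ZEB proteins silence targets were higher with GATA2 overexpression in CD90+ cells. Of 8 tested, 6 were higher and 2 lower with GATA2 overexpression than in CD90+ control cells (median 0.55), or 5 higher and 2 lower with library size alone. Over all tested genes 38.0% were higher and 39.6% lower there. The histone deacetylase HDAC2 averaged 452 ± 9.78 CPM with GATA2 overexpression, against 214 ± 4.48 CPM in CD90+ control cells (1.08, adjusted p = 5.76e-16). The demethylase KDM1A averaged 307 ± 10.1 CPM, against 179 ± 4.63 CPM (0.78, adjusted p = 1.22e-12). RCOR1, the scaffold that joins KDM1A to deacetylases, fell by 0.43 (adjusted p = 2.13e-06) and SIN3A fell by 0.42 (adjusted p = 1.14e-07). In CD90+ against CD38+ control cells 2 were higher and 5 lower (median -0.30), a split that became 4 higher and 3 lower (median 0.11) with library size alone. For GATA2 overexpression CD90+ against CD38+ control cells 3 were higher and 4 lower (median -0.30).

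Among 12 epithelial-state regulators 1 was higher and 9 lower with GATA2 overexpression than in CD90+ control cells (median -1.45). Over all tested genes the shares were 38.0% and 39.6%. In CD90+ against CD38+ control cells 8 were higher and 2 lower (median 1.63). With GATA2 overexpression against CD38+ control cells 5 were higher and 3 lower (median 0.05). ST14, the membrane protease matriptase, averaged 1.1 ± 0.257 CPM with GATA2 overexpression, 5.99 ± 0.369 CPM in CD90+ control libraries and 34.4 ± 2.08 CPM in CD38+ control libraries, the reverse of CDH1 between the control groups. Both ST14 (-2.44, adjusted p = 3.33e-11) and KLF5 (-0.45, adjusted p = 0.000384) fell with GATA2 overexpression in CD90+ cells. ST14 and KLF5 were also the 2 that were lower in CD90+ than in CD38+ control cells. All the other regulators averaged under 5 CPM over the libraries, so the medians rest on scarce transcripts such as GRHL2 (0.193 ± 0.141 CPM with GATA2 overexpression). The regulator that was higher within CD90+ cells was OVOL1, at 4.47 ± 0.47 CPM against 0.733 ± 0.2 CPM.

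Of 12 tested cadherins and catenins other than the members, 2 were higher and 8 lower with GATA2 overexpression than in CD90+ control cells (median -1.0), and with library size alone 0 were higher and 9 lower. The shares over all tested genes were 38.0% higher and 39.6% lower in the main fit. Of the catenins, which bind cadherins, CTNNB1 averaged 87.5 ± 0.57 CPM, against 164 ± 1.64 CPM in CD90+ control cells (-0.91, adjusted p = 2.26e-15), and CTNND1 averaged 33.8 ± 0.9 CPM, against 71.6 ± 1.67 CPM (-1.08, adjusted p = 1.41e-13). In CD90+ against CD38+ control cells 10 were higher and 2 lower (median 2.32), and 12 higher and 0 lower with library size alone. CDH3 averaged 19.5 ± 1.45 CPM in CD90+ control cells, against 0.26 ± 0.137 CPM in CD38+ control cells (6.21, adjusted p = 3.73e-14). With GATA2 overexpression against CD38+ control cells 9 were higher and 3 lower (median 2.10, or 1.58 with the genes at 0 counts in CD38+ control cells set to their bound).

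Junction genes of other kinds followed the same split within CD90+ cells: 17 of 24 tight junction, desmosome and polarity genes were lower with GATA2 overexpression and 3 higher (median -0.86). Of all tested genes 39.6% were lower and 38.0% higher there. DSP averaged 7.58 ± 1.1 CPM, against 43.3 ± 1.28 CPM in CD90+ control cells (-2.51, adjusted p = 1.13e-13), while the desmosomal cadherin DSC2 was higher, at 68.5 ± 2.95 CPM against 34.7 ± 2.05 CPM (0.98, adjusted p = 2.1e-11). In CD90+ against CD38+ control cells 13 were higher and 7 lower (median 1.28), with CLDN4, a tight junction claudin, at 24.2 ± 1.4 CPM against 0.322 ± 0.00331 CPM (6.22, adjusted p = 9.52e-17). F11R, a junctional adhesion molecule also found on leukocytes and platelets, was lower in CD90+ than in CD38+ control cells, at 24.5 ± 1.07 CPM against 103 ± 1.42 CPM (-2.07, adjusted p = 3.08e-17). With GATA2 overexpression against CD38+ control cells 9 were higher and 9 lower (median 0.11).

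Mesenchymal genes fell alongside the epithelial ones within CD90+ cells, with 15 of 18 lower and 3 higher under GATA2 overexpression (median -0.77). Over all tested genes 39.6% were lower and 38.0% higher there. AXL, a receptor kinase, averaged 9.4 ± 0.875 CPM with GATA2 overexpression, against 69.5 ± 2.07 CPM in CD90+ control cells (-2.89, adjusted p = 1.44e-16). LOX, which crosslinks collagen, was higher at 84.5 ± 1.6 CPM with GATA2 overexpression, against 29.5 ± 0.514 CPM in CD90+ control cells (1.52, adjusted p = 2.3e-13). In CD90+ against CD38+ control cells 11 were higher and 7 lower (median 0.93), with the matrix protease MMP2 at 38.4 ± 1.02 CPM against 805 ± 28 CPM (-4.39, adjusted p = 1.05e-22). With GATA2 overexpression against CD38+ control cells 7 were higher and 10 lower (median -0.26).

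Of 10 intermediate filament and linker genes, 3 were higher and 6 lower with GATA2 overexpression than in CD90+ control cells (median -1.31). Over all tested genes the shares were 38.0% and 39.6%. LMNA, the nuclear lamin A gene, averaged 227 ± 5.19 CPM, against 660 ± 9.76 CPM (-1.54, adjusted p = 1.3e-17), and PLEC, the cytolinker plectin, averaged 19.4 ± 0.659 CPM, against 98.1 ± 1.05 CPM (-2.34, adjusted p = 1.4e-17). Library size alone gave 1 higher and 7 lower. The epithelial keratin KRT18 was higher, at 394 ± 2.52 CPM against 315 ± 2.41 CPM (0.32, adjusted p = 8.63e-10). In CD90+ against CD38+ control cells 5 were higher and 4 lower (median 0.17), and with GATA2 overexpression against CD38+ control cells 4 were higher and 4 lower (median 0.39).

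**Figure D4:**
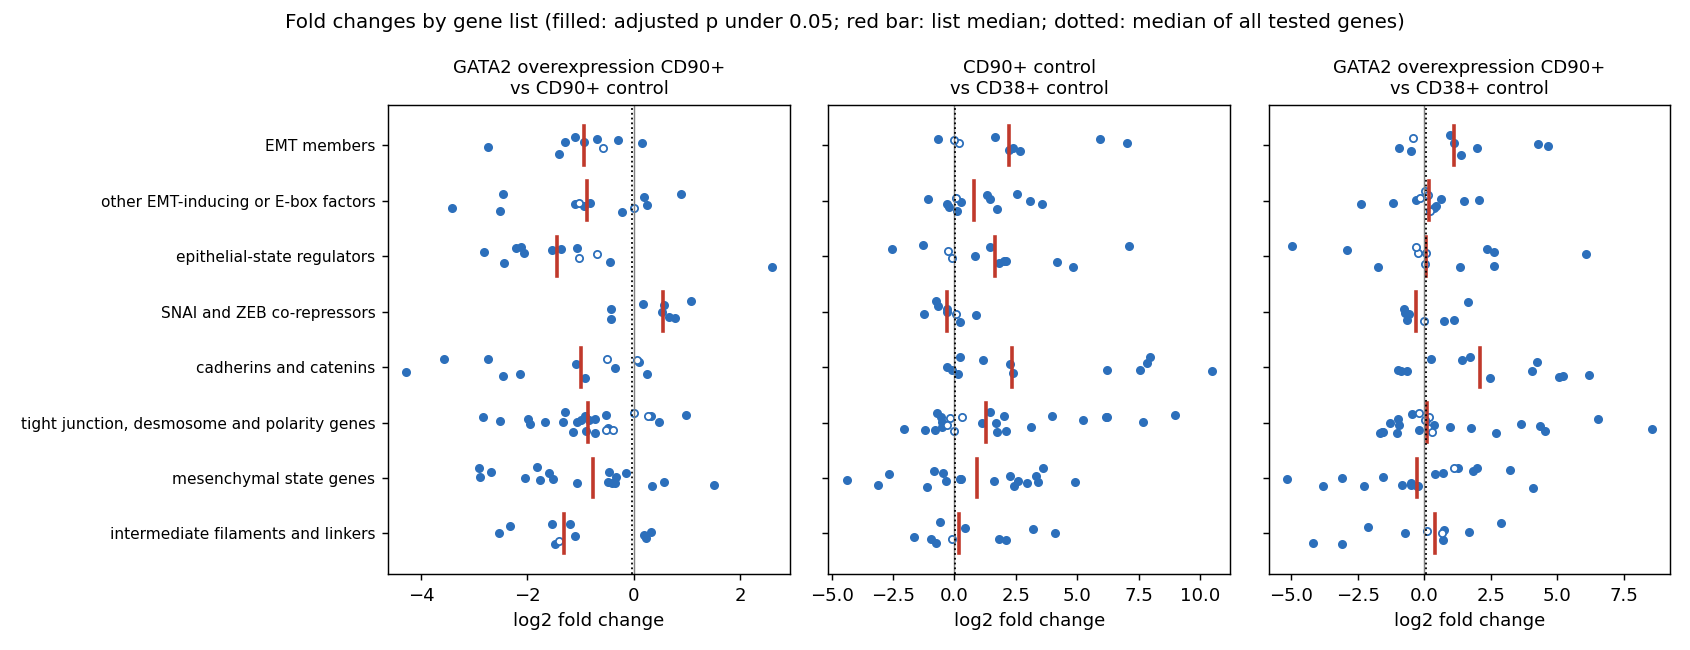
Log2 fold changes of the genes of the 7 further lists and of the members in each comparison; points are genes and the vertical bars mark list medians. Within CD90+ cells the co-repressors have the only list median above 0 (0.55).

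Macrophage markers, 8 of 8 with counts in every group, summed to 221 to 244 CPM with GATA2 overexpression, 1670 to 1700 CPM in CD90+ control libraries and 885 to 941 CPM in CD38+ control libraries. CSF1R made up most of the sum with GATA2 overexpression, at 228 ± 10.3 CPM, against 1070 ± 14.4 CPM in CD90+ control cells. All 7 tested markers were lower with GATA2 overexpression than in CD90+ control cells (median log2 fold change -5.41), among them C1QA at 0.654 ± 0.154 CPM against 150 ± 2.08 CPM and CD14 at 0.804 ± 0.311 CPM against 29.6 ± 1.59 CPM. Between the control groups the tested markers were split, with 5 higher in the CD90+ group and 2 lower, against the sum. The lower ones were CD14 (log2 fold change -3.54), which reached 344 ± 11.3 CPM in the CD38+ group, and CD163 (-0.81). CD68 was not tested, and its mean of 0.0174 CPM with GATA2 overexpression lay below the group floor of 0.0265 CPM. ZEB2 and VIM are known to be carried by macrophages. Mast cell and basophil markers summed to 141 to 155 CPM, 90 to 92 CPM and 1550 to 1590 CPM in the same groups. HDC made up most of the CD38+ control sum, at 1300 ± 18.7 CPM, whereas KIT and FCER1A were lowest there. Against CD38+ control cells 3 of the 7 tested were higher and 4 lower with GATA2 overexpression. Endothelial markers summed to 616 to 656 CPM, 385 to 394 CPM and 418 to 445 CPM. Of 7 tested, 4 were higher and 2 lower with GATA2 overexpression than in CD90+ control cells, or 2 and 3 with library size alone. Although their sum was lower in CD90+ than in CD38+ control cells, 5 were higher and 1 lower. The part of these cell types in the ZEB2 and VIM values was not tested.

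**Figure D5:**
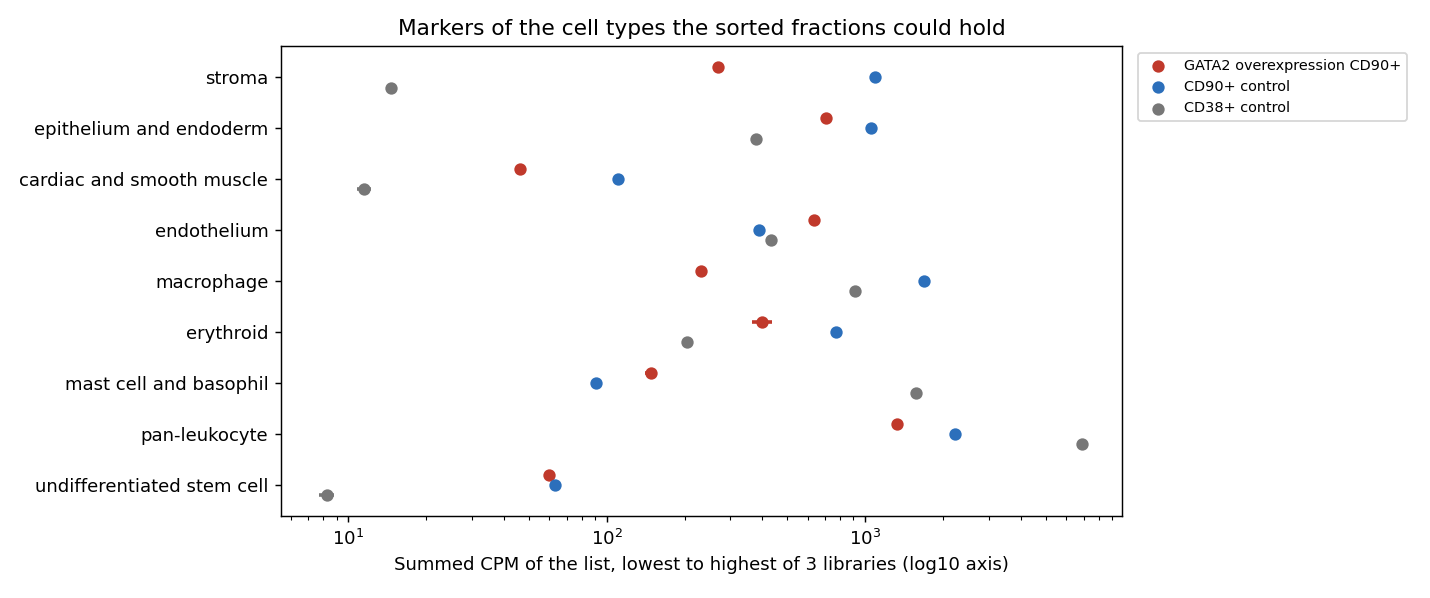
Summed CPM of the markers of 9 cell types in each group, on a log axis; lines run between the lowest and highest library and points mark their geometric midpoint. Stromal markers span 260 to 277 CPM with GATA2 overexpression, 1090 to 1100 CPM in CD90+ control and 14 to 15.2 CPM in CD38+ control libraries.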

How the data were processed

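RNA of 9 libraries was measured by strand-specific sequencing with paired reads, per the labels. The authors deposited whole-number counts per gene symbol. Per the submitters' processing notes HISAT2, featureCounts and hg38 were used, without versions, settings, an annotation or a strand option, so overlapping and duplicated genes are uncertain. All 9 columns were used. Groups come from the labels' genotype and surface marker. Counts of replicate libraries differed by a chi-square of 3.96 to 7.84 per degree of freedom, so none was counted as a duplicate.

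Genes were tested in edgeR 4.0.16 under R 4.3.3 by quasi-likelihood F tests on TMM-scaled counts, after filterByExpr (minimum count 10, minimum total 15) and group means over all 9 libraries, with Benjamini-Hochberg adjustment over 16232 genes and no block. Standard errors are the log2 fold change over the square root of F. Mean TMM factors were 0.980, 1.164 and 0.876 in GATA2 overexpression CD90+, CD90+ control and CD38+ control libraries. CPM per kb used the principal GENCODE release 29 transcript; positions are from that release and promoters from RefSeq. The fit was tested on simulated data. Alternatives were RLE, library-size and upper-quartile scaling, other filters, DESeq2 1.42.0, limma voom (limma 3.58.1), 2-group fits, a replicate block and leaving out each library.

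The members and lists were chosen with earlier results of these data known. From each list the called genes with the lowest adjusted p and a mean of at least 5 CPM were eligible to be named, up to 2 per direction and comparison. NANOG was not analysed here, and some genes eligible by these rules are not reported here.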

Additional observations from a re-analysis of the deposited data

How the results depend on the processing

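Over 18 alternative settings, 470 of 486 recomputed values kept their direction and their side of the threshold, 10 turned, and of those that did not turn 4 became called and 2 lost their call. Counts of members called stayed within 8 to 9 of those tested for GATA2 overexpression against control CD90+ cells, 7 to 8 for CD90+ against CD38+ control cells and 8 for GATA2 overexpression CD90+ against CD38+ control cells. VIM in the first comparison turned to -0.09 with library size only. ZEB2 between the control groups turned to 0.04 with RLE factors and with DESeq2, 0.40 with library size only, 0.26 with upper-quartile factors, 0.01 with no filter, 0.08 with the filter of 1 CPM, 0.05 in the 2-group fit, and 0.01 without CD90+ control replicate 2 or replicate 3 (range over left-out libraries -0.03 to 0.01). TWIST1 in the first comparison ranged from -0.85 to -0.29 (adjusted p 0.0198 to 0.365). With library size as the only scaling, the median over all genes was -0.29, 0.44 and 0.23 in the 3 comparisons, against -0.04, 0.03 and 0.07, and the share of calls that were higher was 35.5%, 71.2% and 58.0%, against 49.0%, 51.2% and 52.1%. Upper-quartile factors gave a median of 0.30 and a share of 64.3% for CD90+ against CD38+ control cells. Beyond the scaling, the cause of these changes was not tested.

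Replicate numbers showed no sign of pairing: 0 of 9 same-numbered pairs had a correlation of deviations over 0.1 (-0.029 to 0.0256). With 3 libraries per group this cannot tell whether same-numbered libraries shared a culture. With the number as a replicate block, 8, 7 and 8 members and 12384, 12889 and 13347 genes were called, against 12602, 13056 and 13498 without it. Few counts limit TWIST1, TWIST2, and CDH1 and SNAI2 in CD38+ control cells.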
